A study of Mus musculus with 9 samples.

Results

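Amino acid transporters of the Slc1, Slc3, Slc7, Slc36, Slc38 and Slc43 families were followed in MIN6 cells at 3 arginine concentrations. The genes were chosen by name and annotation: every protein-coding entry of the deposited gene table whose symbol belongs to these 6 families was taken, which gave 42 of the 54876 genes listed. The grouping used no measured value, though it was drawn up with earlier results of these data known. The Slc7 family had 15 entries, Slc38 had 11, Slc1 had 7, Slc36 had 4, Slc43 had 3 and Slc3 had 2. They were sorted by substrate from textbook knowledge into 6 cationic, 2 cystine, 6 acidic and 20 neutral amino acid transporters. The 2 Slc3 genes encode heavy chains and were kept apart, and 6 members whose substrate is not settled, or is not an amino acid, were left unassigned.

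MIN6 cells come from a mouse insulinoma, so a single tumour-derived line stands here for the pancreatic beta cell; the labels give its strain as C57BL/6. The groups were low arginine (0.1 times the standard concentration), standard arginine (1 times) and high arginine (20 times), each with 3 libraries of total RNA taken after 24 h in DEME medium, as the labels spell it. No other agent or allele is named for any group. Whether the 3 libraries of a group were separate cultures is not stated, and the p-values therefore reflect the spread among these libraries, which may be technical. Levels are FPKM, that is, fragments scaled to gene length and library size, and can be compared between genes because they are per length.

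Cells take up and release amino acids through membrane carriers whose substrate ranges overlap. Cationic carriers of the Slc7 family bring in arginine and lysine, while the heterodimeric exchangers pair a light chain of the same family with the glycoprotein heavy chain Slc3a2 (4F2hc, CD98) or Slc3a1 (rBAT) and trade amino acids across the membrane. Sodium-coupled carriers of the Slc38 and Slc1 families supply glutamine, alanine, serine and glutamate, and several Slc36 and Slc38 proteins sit on lysosomes, where amino acid supply is sensed. In beta cells, arginine entering as a positive charge depolarises the membrane and is a classical stimulus of insulin secretion.

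The libraries held 21550637 to 26300872 reads in genes. Of 8 beta cell markers 7 passed the filter on low values, with Ins2 at a mean of 50209 FPKM over the 9 libraries, while the glucose transporter gene Slc2a2 was at 0.0103 FPKM. None of the 5 acinar and duct, 5 stromal or 4 endothelial and immune markers passed; of these, Krt19, Prss2, Cdh5 and Ptprc were at 0. The alpha cell list of 5 had a summed level of 260 to 341 FPKM in low, 891 to 992 FPKM in standard and 892 to 901 FPKM in high arginine, nearly all from Ttr. The delta and PP cell list of 3 summed to 8718 to 11314 FPKM in low, 5434 to 6207 FPKM in standard and 5721 to 5913 FPKM in high arginine, nearly all from Sst. The low arginine libraries thus lay apart from the rest in both of these sums. The beta cell list summed to 78639 to 80182 FPKM in low, 73434 to 82018 FPKM in standard and 74915 to 77412 FPKM in high arginine. Within it, Pdx1, Nkx6-1 and Mafa averaged 373, 190 and 310 FPKM in low against 150, 66.3 and 247 FPKM in standard arginine. Ins1 and Slc30a8 went the other way, at 1065 and 16.4 FPKM in low against 1542 and 16.7 FPKM in standard arginine. In the test described below, 62.2% of all tested genes differed between low and standard arginine. The part of these cell types and marker differences in the results was not tested.

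Of the 42 members, 22 were tested, meaning that they reached 1 FPKM in at least 3 of the 9 libraries. These were 4 of 6 cationic, 1 of 2 cystine, 1 of 6 acidic, 11 of 20 neutral, 1 of 2 heavy chain and 4 of 6 unassigned genes. Slc7a11 and Slc38a6 reached 1 FPKM in 3 libraries only because of the low arginine libraries, so they had to be higher there. Of the 20 members under the filter, 15 stayed below 0.1 FPKM in every library, among them the glutamate transporters Slc1a1, Slc1a3, Slc1a6 and Slc1a7 and the glutamine transporters Slc38a1 and Slc38a3. Slc7a9, Slc7a12 and Slc7a13 had 0 reads in every library, and Slc7a10, Slc36a2, Slc36a3, Slc38a11, Slc43a1 and Slc43a3 make up the rest of the 15.

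In standard arginine the heterodimer genes led. Slc7a5, the LAT1 light chain that carries large neutral amino acids such as leucine, averaged 165 ± 15.4 FPKM, and Slc3a2, its heavy chain, 104 ± 7.36 FPKM (SD, n = 3). Slc38a4, a sodium-coupled carrier placed here in the neutral class, followed at 72.8 ± 2.44 FPKM, Slc38a10 at 62.6 ± 7.22 FPKM and Slc7a3, a cationic carrier best known from brain, at 42.7 ± 1.51 FPKM. Each of these levels stood apart from the next in all 3 standard libraries. Further down, Slc38a5, Slc7a1, Slc36a4, Slc36a1 and Slc1a4 lay between 18.8 and 21.8 FPKM, and each overlapped its neighbours in that order. The lowest tested members were Slc7a2, Slc38a6 and Slc7a11, at 1.85, 0.962 and 0.844 FPKM.

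**Figure D1:**
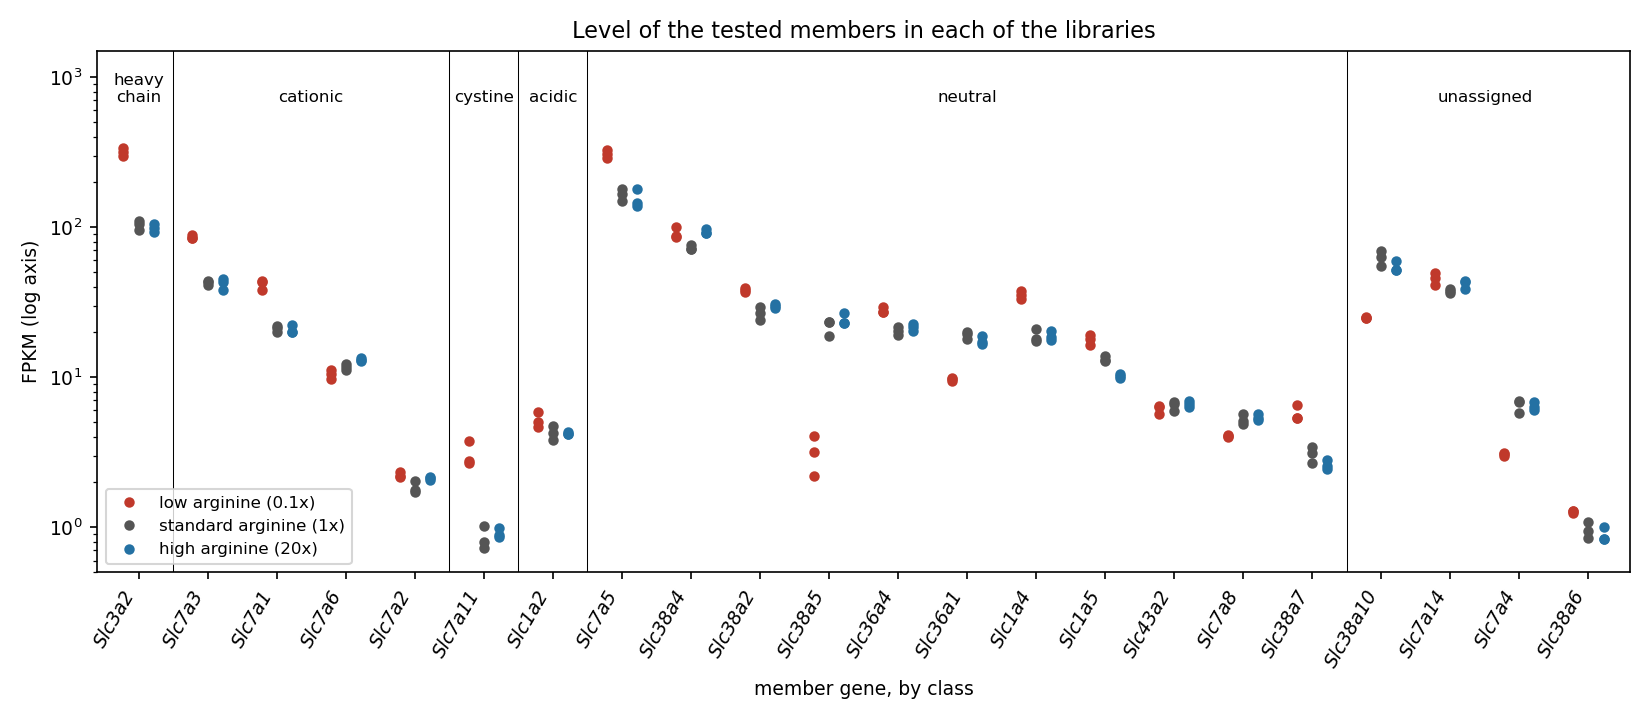
Level (FPKM, log axis) of the 22 tested members, by class, in each of the 9 libraries (dots; low, standard and high arginine from left to right for each gene). Slc3a2 and Slc7a5 lie at 287 to 336 FPKM in low arginine, above every other member, and Slc38a5 is the member whose low arginine dots fall farthest below the others.

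The first comparison asked how transporter genes answered a deficient arginine supply. In low against standard arginine, 15 of the 22 tested members rose and 6 fell in limma (Benjamini-Hochberg adjusted p under 0.05 over all 12300 genes tested), and only Slc43a2 did not pass. The background was high: 62.2% of all tested genes were called in this contrast, 30.3% higher and 31.9% lower, against 95.5% of the tested members. The median log2 change of the tested members was 0.289 on the log2(FPKM + 1) scale, and that of all genes tested was 0.001. With a log2 change of at least 1, Slc3a2 and Slc7a11 rose and Slc38a10 and Slc38a5 fell; 1.92% of all genes rose and 3.28% fell that far. Without the 2 members that passed only through the low arginine libraries, 13 of 20 rose and 6 fell, and 1 rose that far, Slc3a2, as did 215 of the 11952 genes that pass the filter in the other libraries. In RNA from whole cultures, fewer cells with a transcript and less of it per cell cannot be told apart.

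**Figure D2:**
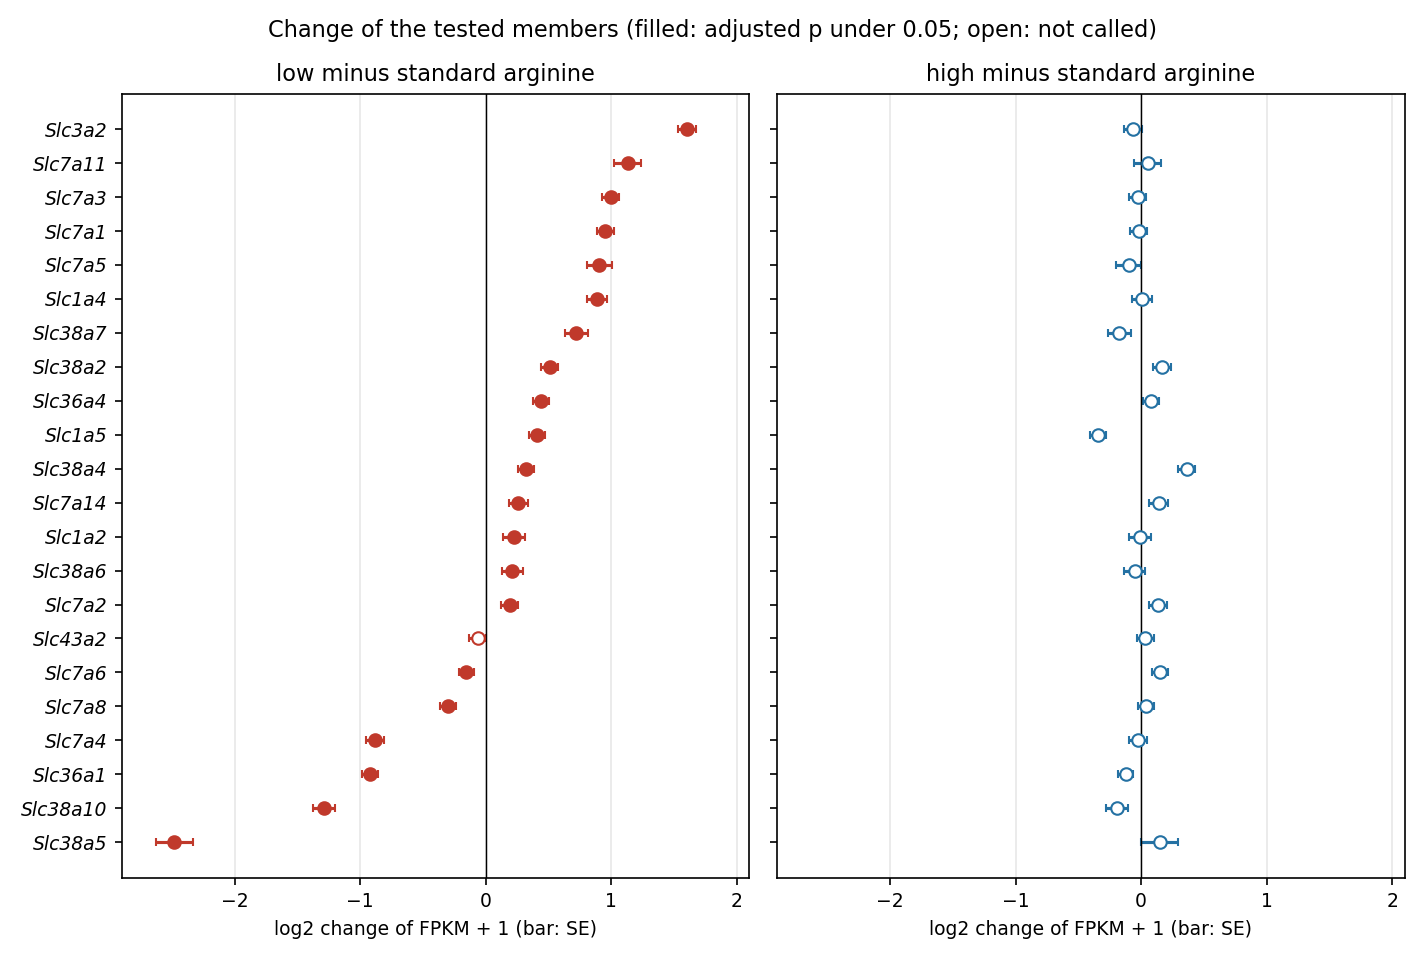
Change of the 22 tested members on the log2(FPKM + 1) scale (horizontal axis; bars, SE), for low minus standard arginine (left) and high minus standard arginine (right); filled points passed an adjusted p under 0.05. Changes in low arginine run from -2.48 for Slc38a5 to 1.61 for Slc3a2, and in high arginine every point is open.

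Of the 4 tested cationic carriers, 3 rose and 1 fell in low against standard arginine, where 30.3% of all tested genes rose and 31.9% fell. Of these calls 2, for Slc7a2 and Slc7a6, lay near the threshold. Slc7a1, CAT1, the broadly expressed carrier of arginine, lysine and ornithine (chromosome 5, 148327410 to 148399904, GRCm38), had 43.3, 43.6 and 38.3 FPKM in low, 21.3, 21.9 and 19.9 FPKM in standard and 22.2, 19.9 and 20.1 FPKM in high arginine. The low arginine libraries were all above the others, while standard and high arginine overlapped. Its log2 change in low against standard arginine was 0.95 (SE 0.07, adjusted p 1.06e-06), a ratio of mean FPKM of 1.98.

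Slc7a3, CAT3 (chromosome X, 101079210 to 101086020), had 85.3, 88.7 and 84.3 FPKM in low, 44.05, 42.96 and 41.1 FPKM in standard and 37.97, 44.9 and 43.1 FPKM in high arginine. It doubled in the same pattern as Slc7a1, with a ratio of 2.02 and a log2 change of 1.00 (SE 0.07, adjusted p 5.66e-07). Slc7a3 was the most abundant transcript of the cationic class in all 3 media. It made up 60.8 ± 0.905% of the summed cationic FPKM in low and 54.8 ± 0.418% in standard arginine (SD, n = 3 each), and Slc7a1 made up 29.5 ± 1.21% and 27.0 ± 0.644%.

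Slc7a2, CAT2 (chromosome 8, 40862396 to 40922308), the low-abundance member of the same branch, had 2.35, 2.17 and 2.21 FPKM in low, 1.72, 1.77 and 2.04 FPKM in standard and 2.05, 2.17 and 2.14 FPKM in high arginine. The 3 low arginine values lay above the 3 standard ones by a small margin, and the log2 change was 0.19 (SE 0.07, adjusted p 0.0365). Slc7a6, y+LAT2, a light chain that exports arginine in exchange for neutral amino acids (chromosome 8, 106168857 to 106198706), had 9.73, 11.1 and 10.4 FPKM in low, 12.3, 11.7 and 11.2 FPKM in standard and 13.0, 12.9 and 13.5 FPKM in high arginine. Its log2 change in low against standard arginine was -0.15 (SE 0.06, adjusted p 0.0479), a mean of 10.4 ± 0.693 FPKM in low against 11.7 ± 0.576 FPKM in standard (SD, n = 3 each). Neither the Slc7a2 nor the Slc7a6 call was firm: each was lost in 7 of the 9 fits that left out 1 library, with adjusted p up to 0.118 for Slc7a2 and 0.16 for Slc7a6. In these 9 fits the log2 change ran from 0.16 to 0.24 for Slc7a2 and from -0.2 to -0.11 for Slc7a6. The Slc7a2 call held only without standard replicate 3 or high replicate 1, and the Slc7a6 call only without low replicate 2 or standard replicate 3. In TPM, where the median of all genes moved to 0.115, the Slc7a6 change was -0.04 and did not pass.

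The other cationic members were under the filter. Slc7a7, y+LAT1, the sister exchanger of Slc7a6, had 0.678, 0.416 and 0.482 FPKM in low, 0.239, 0.291 and 0.134 FPKM in standard and 0.363, 0.380 and 0.377 FPKM in high arginine, resting on 10 to 59 reads per library. It also shares 232 exon bases with Oxa1l on the other strand, which was at 9.19 FPKM, so these few reads are uncertain. Slc38a9, the lysosomal arginine sensor of the mTORC1 pathway (chromosome 13, 112660751 to 112738749), had 0.533, 0.565 and 0.506 FPKM in low, 0.336, 0.465 and 0.442 FPKM in standard and 0.353, 0.349 and 0.386 FPKM in high arginine, from 134 to 260 reads per library. With no filter on low values, Slc7a7 passed in low against standard arginine, with a log2 change of 0.32 (adjusted p 0.0114), and Slc38a9 did not, at 0.12 (adjusted p 0.0992).

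**Figure D3:**
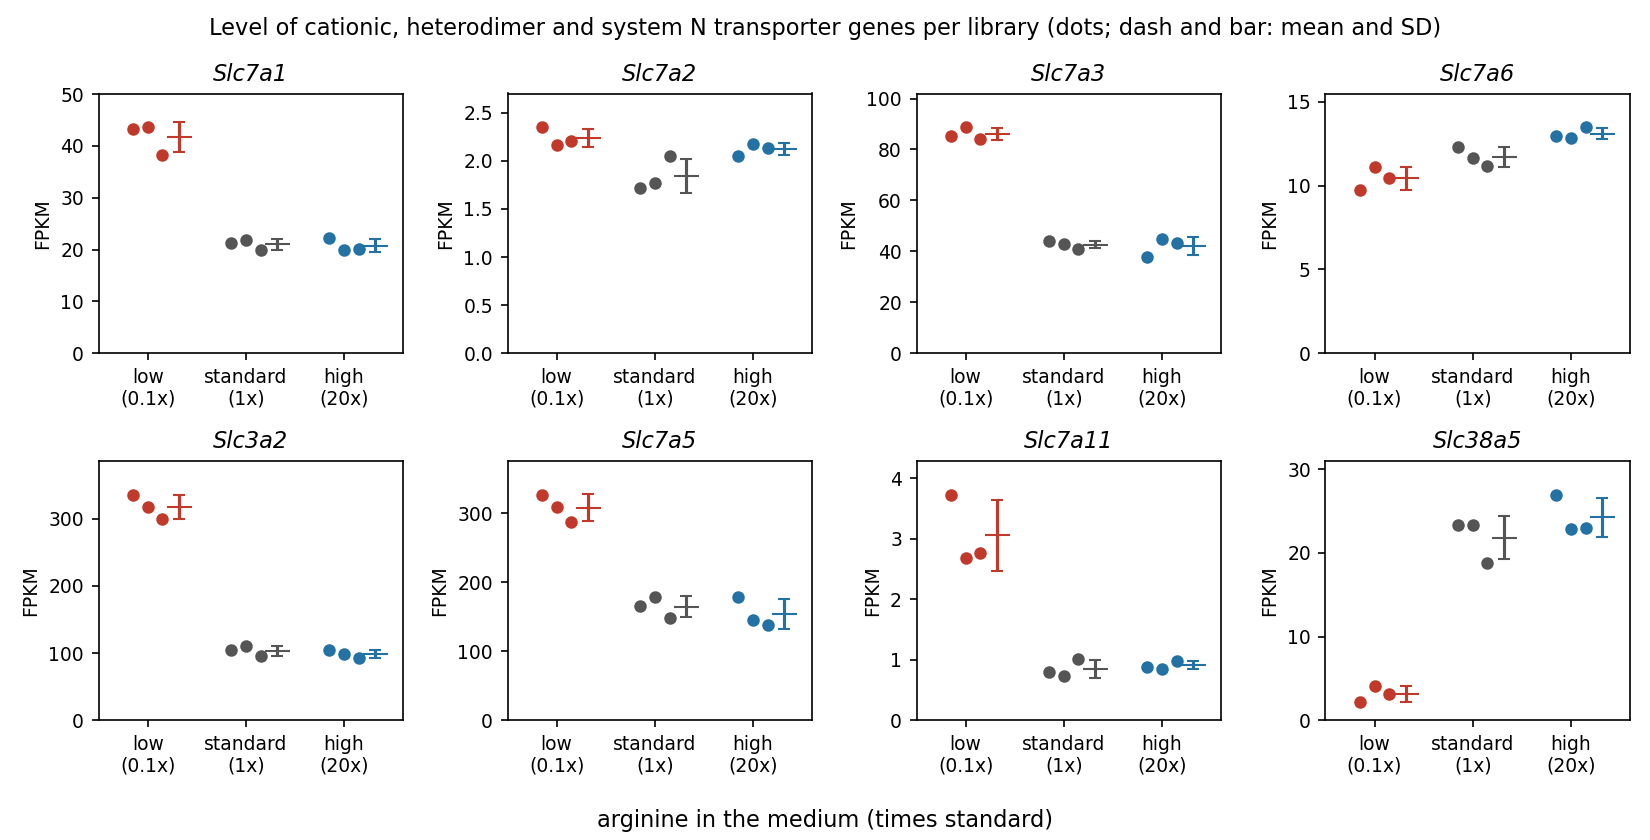
Level (FPKM, linear axis from 0) of 8 members in low, standard and high arginine (dots, libraries; dash and bar, mean and SD, n = 3). Slc7a1, Slc7a3, Slc3a2, Slc7a5 and Slc7a11 are higher in every low arginine library than in any other library, and Slc38a5 is lower, at 2.21 to 4.06 FPKM against at least 18.8 FPKM elsewhere.

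On the log2(FPKM + 1) scale the heavy chain had the largest rise of the tested members; with a pseudocount of 0.1 the change of Slc7a11 was larger, at 1.74 against 1.61 for Slc3a2, as it was with voom weights, at 1.85 against 1.62. Slc3a2 (chromosome 19, 8706882 to 8723369) had 336, 317 and 300.1 FPKM in low, 105, 110.2 and 95.7 FPKM in standard and 105, 98.2 and 93.1 FPKM in high arginine. The lowest of the low arginine libraries was far above the highest of the others. Its mean ratio in low against standard arginine was 3.06 and its log2 change 1.61 (SE 0.07, adjusted p 4.28e-08). The other heavy chain gene, Slc3a1, whose protein pairs with the cystine and arginine carrier of kidney and gut, rested on 2 to 9 reads per library and was not tested. It also shares 26.5% of its exon bases with Prepl on the other strand, at 32.4 FPKM.

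Among the light chains that pair with Slc3a2, the changes were unequal. Slc7a5 (chromosome 8, 121881150 to 121907694) had 327, 309.8 and 287 FPKM in low, 166, 179 and 149 FPKM in standard and 178, 146 and 139 FPKM in high arginine, a log2 change of 0.90 in low against standard (SE 0.10, adjusted p 2.24e-05). Slc7a8, LAT2, a neutral amino acid exchanger (chromosome 14, 54722209 to 54781946), fell to 4.05 ± 0.0499 FPKM in low, against 5.24 ± 0.440 FPKM in standard arginine (SD, n = 3 each; log2 change -0.30, SE 0.06, adjusted p 0.00204). Of the 4 tested light chains, Slc7a5 and Slc7a11 rose, and Slc7a8 and Slc7a6 fell. Among all tested genes 30.3% rose and 31.9% fell. Slc7a11 was tested only through its low arginine libraries and had to be higher there. The ratio of Slc3a2 to Slc7a5 in FPKM was 1.03, 1.02 and 1.04 in low, 0.635, 0.614 and 0.644 in standard and 0.591, 0.673 and 0.672 in high arginine. Slc3a2 was thus the most abundant member in every low arginine library, and Slc7a5 in every other one. An exact two-sided permutation test of the ratio in low against standard arginine gave p = 0.1, the smallest value that 3 against 3 libraries allow, so it could not pass 0.05. Against the summed FPKM of its 6 light chains, Slc3a2 stood at 0.974 ± 0.00905 in low and 0.568 ± 0.00910 in standard arginine (SD, n = 3 each).

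Slc7a11, xCT, is the light chain that takes up cystine in exchange for glutamate and so feeds glutathione synthesis. The gene (chromosome 3, 49892526 to 50443614) had 3.73, 2.68 and 2.76 FPKM in low, 0.792, 0.728 and 1.01 FPKM in standard and 0.890, 0.855 and 0.987 FPKM in high arginine, from 210 to 1364 reads per library. The low arginine libraries did not overlap the others, and the ratio of mean FPKM in low against standard arginine was 3.62, the highest among the tested members. Slc7a11 was tested only through its low arginine libraries and had to be higher there, so its direction and rank are not independent of the filter. The log2 change was 1.13 (SE 0.11, adjusted p 7.53e-06), which the pseudocount of 1 keeps small for a gene this low. The other cystine transporter gene, Slc7a9, had no read.

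Of the 8 members listed as known targets of the transcription factor ATF4 in other cells, 8 rose in low arginine: Slc3a2, Slc7a11, Slc7a3, Slc7a1, Slc7a5, Slc1a4, Slc38a2 and Slc1a5. Among all tested genes 30.3% were called higher. The median log2 change of the 8 was 0.928. Slc7a11 was tested only through its low arginine libraries and had to be higher there; without it 7 of 7 rose, with a median of 0.903. The list was drawn up with earlier results of these libraries known, so its direction is not independent evidence. ATF4 is made when cells lack amino acids and binds, with C/EBP partners, a composite element whose core is TGATGNAA. That core was searched on both strands of the RefSeq promoter windows (GRCm38.p6, from 250 bases before to 50 bases after each start), in which 31 of the 42 members were found. It occurred in 3 of these 31 members, namely Slc7a11, Slc1a4 and Slc7a7, while 4.51% of the 27025 genes in the table had it in any promoter. Counted by promoter, 4 of 42 member windows held it, and 3.97% of all 32851. Of the 5 listed ATF4 targets with a window, 2 held it. The windows are printed for both of these, where the capitals mark the core. They are also printed for Slc3a2 and Slc38a5, the genes with the most positive and the most negative change on the log2(FPKM + 1) scale. Neither of these windows held the core. Slc7a11 holds it in both orientations, starting at -66 from the start of transcription for the first. Slc1a4 holds it on the opposite strand at -4. The only Slc3a2 window lies inside the annotated gene, whose first base on the minus strand is 8723369. That of Slc38a5 begins beside its annotated gene start, at 8271133. Sequence before these annotated starts was therefore hardly or not searched, and absence of the core there is not shown.
Slc7a11 (chr3:50443564-50443863, minus strand): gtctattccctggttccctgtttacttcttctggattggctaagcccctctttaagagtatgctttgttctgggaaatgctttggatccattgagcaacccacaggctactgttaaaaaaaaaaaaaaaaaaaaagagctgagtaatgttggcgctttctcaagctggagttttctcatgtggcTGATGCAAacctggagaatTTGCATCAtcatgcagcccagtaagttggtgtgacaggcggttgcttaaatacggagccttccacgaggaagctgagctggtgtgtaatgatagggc
Slc1a4 (chr11:20332664-20332963, minus strand): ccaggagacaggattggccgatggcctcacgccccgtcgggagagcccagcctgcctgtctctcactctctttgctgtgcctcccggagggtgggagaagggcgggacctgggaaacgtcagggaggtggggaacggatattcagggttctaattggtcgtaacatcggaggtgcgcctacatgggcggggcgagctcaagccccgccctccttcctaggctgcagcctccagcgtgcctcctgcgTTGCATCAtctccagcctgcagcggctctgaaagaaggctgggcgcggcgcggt
Slc3a2 (chr19:8713848-8714147, minus strand): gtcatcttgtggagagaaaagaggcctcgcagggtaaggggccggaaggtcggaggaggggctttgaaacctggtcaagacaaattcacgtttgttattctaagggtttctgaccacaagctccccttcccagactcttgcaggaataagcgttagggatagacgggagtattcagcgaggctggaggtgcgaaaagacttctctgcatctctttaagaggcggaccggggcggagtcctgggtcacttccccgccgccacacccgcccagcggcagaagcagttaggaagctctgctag
Slc38a5 (chrX:8271131-8271430, plus strand): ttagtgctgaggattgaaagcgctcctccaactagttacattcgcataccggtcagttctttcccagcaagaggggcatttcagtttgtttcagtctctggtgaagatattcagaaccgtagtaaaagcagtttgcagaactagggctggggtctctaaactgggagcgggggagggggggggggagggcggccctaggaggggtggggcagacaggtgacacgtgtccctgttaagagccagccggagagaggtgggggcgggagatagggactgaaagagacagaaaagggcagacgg

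Slc1a5, Slc7a2, Slc7a3, Slc7a4, Slc7a5, Slc7a12, Slc7a13, Slc36a2, Slc38a1, Slc38a3 and Slc43a3 were not matched to a window. Of the 11 matched members that rose in low arginine, 2 held the core, and of the 5 matched members that fell, 0 did. A match is a run of letters and no evidence of binding.

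The neutral amino acid carriers split into genes that rose and genes that fell. Of the 11 tested, 7 rose and 3 fell in low against standard arginine, where 30.3% of all tested genes rose and 31.9% fell. Slc1a4, ASCT1, an exchanger of alanine, serine and cysteine (chromosome 11, 20302180 to 20332713), had 37.7, 35.3 and 33.3 FPKM in low, 17.4, 20.8 and 18.1 FPKM in standard and 20.3, 17.7 and 18.6 FPKM in high arginine. It rose by 0.88 (SE 0.08, adjusted p 4.88e-06). Slc1a5, ASCT2, a glutamine exchanger, reached 17.9 ± 1.33 FPKM in low, against 13.3 ± 0.598 FPKM in standard arginine (log2 change 0.40, SE 0.06, adjusted p 0.000273).

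The largest fall was in the Slc38 family. Slc38a5, SNAT5, carries glutamine, asparagine, histidine and serine and is known in mouse islets from alpha cells, where blockade of glucagon action induces it. The gene (chromosome X, 8271133 to 8280179) had 2.21, 4.06 and 3.15 FPKM in low, 23.3, 23.3 and 18.8 FPKM in standard and 27.0, 22.8 and 23.0 FPKM in high arginine. The highest low arginine library was far below the lowest of the others. The mean was 6.94 times higher in standard than in low arginine, and the log2 change was -2.48 (SE 0.15, adjusted p 2.58e-07). The alpha cell marker sum given above was lower in the same libraries, while Irx1 and Irx2 of that list averaged 0.155 and 0.0177 FPKM over the 9 libraries; the part of such cells in the result was not tested.

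Other Slc38 genes moved the opposite way or in between. Slc38a2, SNAT2, the carrier known for its induction when cells are starved of amino acids (chromosome 15, 96687392 to 96699730), had 39.1, 38.4 and 37.1 FPKM in low, 26.8, 23.9 and 29.2 FPKM in standard and 29.1, 30.8 and 29.9 FPKM in high arginine, a log2 change of 0.51 in low against standard (SE 0.07, adjusted p 0.000103). Slc38a7, SNAT7, which releases glutamine from lysosomes (chromosome 8, 95835920 to 95853539), had 6.53, 5.37 and 5.31 FPKM in low, 3.12, 3.45 and 2.68 FPKM in standard and 2.82, 2.55 and 2.46 FPKM in high arginine, a log2 change of 0.72 (SE 0.09, adjusted p 5.81e-05). Both were higher in all low arginine libraries than in any other. Slc38a4 averaged 91.3 ± 7.91 FPKM in low, against 72.8 ± 2.44 FPKM in standard arginine, a log2 change of 0.32 (SE 0.07, adjusted p 0.00164). Slc38a5 supplied 1.92 ± 0.62% of the summed Slc38 FPKM in low and 11.6 ± 1.11% in standard arginine, whereas Slc38a4 supplied 55.2 ± 1.84% and 38.6 ± 2.31% (SD, n = 3 each).

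Of the proton-coupled Slc36 carriers, both tested members changed in low against standard arginine, in opposite directions, where 62.2% of all tested genes were called. Slc36a1, PAT1, which exports small neutral amino acids from lysosomes (chromosome 11, 55204350 to 55236330), had 9.73, 9.83 and 9.37 FPKM in low, 19.5, 20.0 and 18.1 FPKM in standard and 18.8, 16.8 and 17.0 FPKM in high arginine. It fell by 0.92 (SE 0.06, adjusted p 5.49e-07), with no overlap between the low arginine libraries and the rest. Slc36a4, PAT4, averaged 28.0 ± 1.37 FPKM in low, against 20.4 ± 1.247 FPKM in standard arginine, a log2 change of 0.44 (SE 0.06, adjusted p 0.000153). Slc43a2, LAT4, a facilitated carrier of large neutral amino acids, was the tested member that did not pass, at 6.13 ± 0.413 FPKM in low against 6.46 ± 0.465 FPKM in standard arginine (log2 change -0.06, 95% interval -0.22 to 0.09). Slc38a8, a glutamine carrier under the filter, averaged 0.108 FPKM in low, 0.153 FPKM in standard and 0.0979 FPKM in high arginine. The reads of Slc43a2 are also uncertain, since 9.18% of its exon bases are shared with the antisense gene Gm45606, at 3.98 FPKM.

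Acidic amino acid carriers were nearly silent apart from Slc1a2, GLT-1, best known as the glutamate transporter of astrocytes. It had 5.87, 5.01 and 4.64 FPKM in low, 4.27, 3.79 and 4.74 FPKM in standard and 4.30, 4.18 and 4.19 FPKM in high arginine, and low and standard arginine overlapped. The log2 change in low against standard arginine was 0.23 (SE 0.09, adjusted p 0.0392). The call was lost in 6 of the 9 fits that left out 1 library, with adjusted p up to 0.147; it held without low replicate 3, standard replicate 3 or high replicate 1.

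Among the unassigned members, Slc38a10, a member of the Slc38 family without a settled substrate (chromosome 11, 120103960 to 120151346), had 24.9, 25.2 and 24.7 FPKM in low, 63.3, 69.4 and 55.0 FPKM in standard and 59.9, 51.5 and 52.2 FPKM in high arginine. It fell by 1.29 (SE 0.09, adjusted p 5.54e-07), and the low arginine libraries lay within 1 FPKM of each other. Slc7a4, a relative of the cationic carriers for which no such transport has been shown, had 3.07, 3.12 and 2.99 FPKM in low, 6.86, 6.92 and 5.77 FPKM in standard and 6.01, 6.79 and 6.35 FPKM in high arginine, a log2 change of -0.89 (SE 0.07, adjusted p 2.45e-06). Slc38a10 shares 5.72% of its exon bases with Gm11769, at 1.87 FPKM, and Slc7a4 13.3% with P2rx6, at 0.149 FPKM, each on the other strand.

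Slc7a14, another relative of the cationic carriers, was abundant with 45.5 ± 4.26 FPKM in low against 37.8 ± 1.19 FPKM in standard arginine, a log2 change of 0.26 (SE 0.08, adjusted p 0.0118). Slc38a6 had 1.29, 1.23 and 1.29 FPKM in low, 0.845, 0.948 and 1.09 FPKM in standard and 0.834, 0.838 and 1.01 FPKM in high arginine. Its log2 change was 0.21 (SE 0.09, adjusted p 0.0495), a call that held only without standard replicate 3 among the 9 fits that left out 1 library (adjusted p up to 0.152 in the others). Slc38a6 was tested only through its low arginine libraries and had to be higher there. Slc43a3, which carries purine bases rather than amino acids, was at 0 in standard and high arginine.

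Summed over the members of a class, the level per library followed the most abundant genes. The cationic sum was 142, 147 and 136 FPKM in low, 79.9, 79.1 and 74.8 FPKM in standard and 75.9, 80.5 and 79.6 FPKM in high arginine. The neutral sum averaged 548 ± 31.1 FPKM in low, 372 ± 15.4 FPKM in standard and 385 ± 24.2 FPKM in high arginine. The unassigned sum went the other way, at 74.8 ± 4.45, 108 ± 6.55 and 104 ± 6.09 FPKM in low, standard and high arginine (SD, n = 3 each). Over the 42 members the sum was 1090.4 ± 57.4 FPKM in low, against 667 ± 30.9 FPKM in standard arginine, a ratio of 1.63, to which Slc3a2 and Slc7a5 contributed most.

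**Figure D4:**
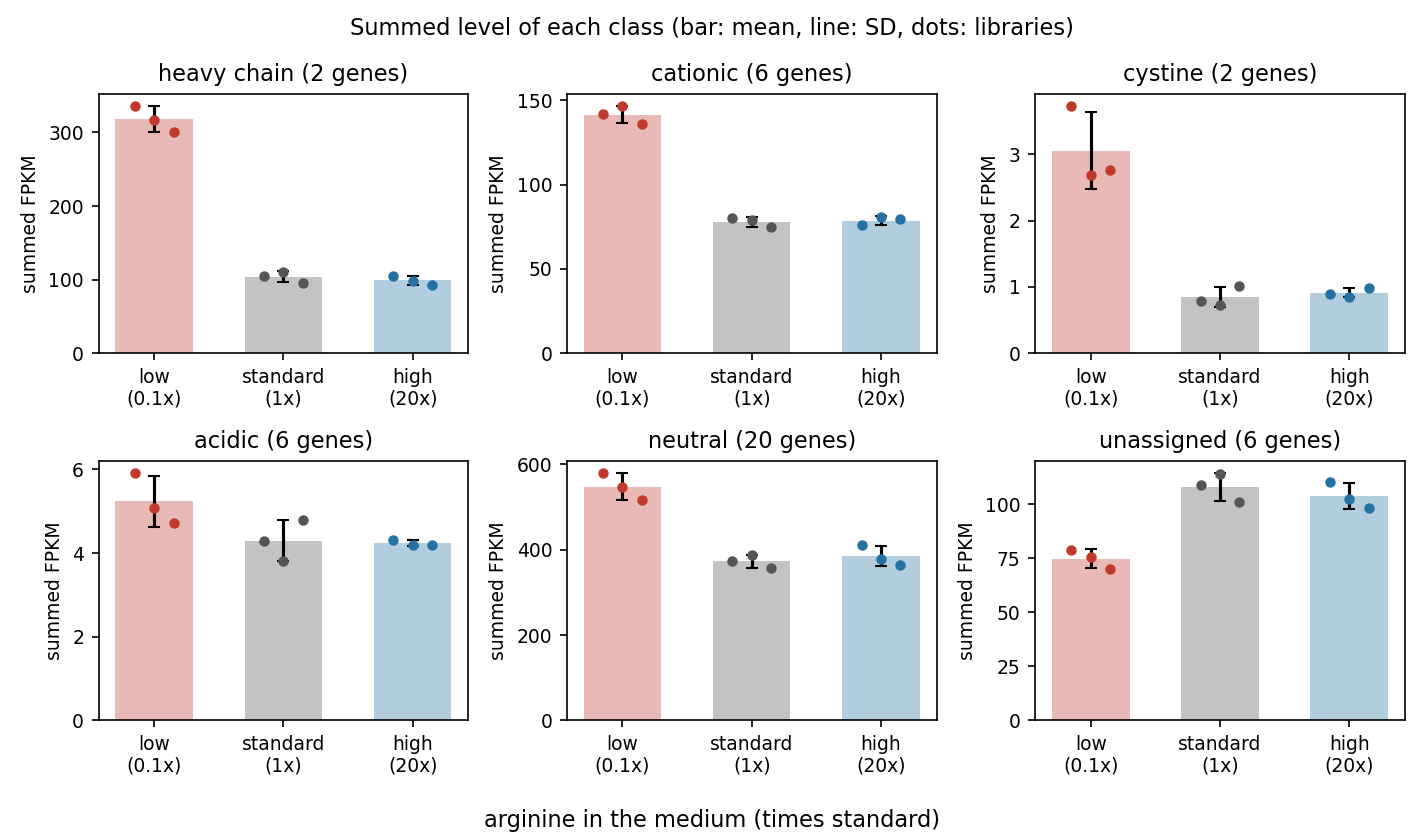
Summed FPKM of each class (vertical axis, from 0) in low, standard and high arginine; bars, mean; lines, SD; dots, the 3 libraries of each group. The heavy chain, cationic, cystine and neutral sums are higher in all low arginine libraries than in any other, the unassigned sum is lower, and the acidic sum overlaps between low and standard arginine.

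Amino acid transporters outside the 6 families were also looked up. Of 29 listed from textbook knowledge, 15 were tested, and 4 rose and 3 fell in low against standard arginine, 46.7% of those tested, where 62.2% of all tested genes were called. The 4 with the largest changes were Slc6a9, the glycine transporter GlyT1, at 1.26 (SE 0.07, adjusted p 1.45e-07), Mfsd12, a lysosomal and melanosomal cysteine importer, at 0.51 (SE 0.06), Slc25a44, a mitochondrial carrier of branched-chain amino acids, at -0.42 (SE 0.06), and Slc16a10, the aromatic amino acid carrier TAT1, at -0.36 (SE 0.06). Of the carriers that move cationic amino acids across inner membranes, Slc25a29, the mitochondrial arginine and lysine carrier, rose by 0.23 (SE 0.08, adjusted p 0.0276). Slc25a15, the mitochondrial ornithine carrier, and Pqlc2, the lysosomal exporter of arginine and lysine, did not pass, at -0.01 (SE 0.07) and 0.09 (SE 0.08).

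The next comparison set an arginine surplus against the standard medium. In high against standard arginine limma called 0 of the 22 tested members, while 5 had an unadjusted p under 0.05; 0.309% of all tested genes were called, 0.138% being called higher and 0.00813% higher with a log2 change of at least 1. With voom weights 1 member was called higher, Slc38a4, and 1 lower, Slc1a5. With array weights, under which 10.8% of all genes were called, Slc38a4 and Slc38a2 were called higher and Slc1a5, Slc38a10 and Slc36a1 lower. The median log2 change of the tested members was -0.002, and that of all genes 0.014. Slc38a4 and Slc1a5 were nearest to the threshold, each with an adjusted p of 0.0509.

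Slc38a4 (chromosome 15, 96994820 to 97055956) had 92.1, 97.4 and 92.1 FPKM in high arginine and 71.3, 71.5 and 75.6 FPKM in standard arginine, with 100.4, 88.0 and 85.6 FPKM in low arginine. All libraries at either extreme of arginine lay above all standard ones, and the log2 change in high against standard was 0.36 (SE 0.07, 95% interval 0.22 to 0.51). Slc1a5 (chromosome 7, 16781340 to 16798274) had 10.6, 10.1 and 9.95 FPKM in high arginine and 12.9, 13.9 and 13.0 FPKM in standard arginine, with 16.5, 18.1 and 19.1 FPKM in low arginine. Its 3 groups did not overlap and were ordered against the arginine concentration, with a log2 change in high against standard of -0.35 (SE 0.06, 95% interval -0.49 to -0.20). Without low replicate 1, both were called, with an adjusted p of 0.0302 for Slc38a4 and 0.0464 for Slc1a5. That library is in neither group compared. It enters the shared estimate of the spread and the filter that sets which genes are tested. Over the alternatives tried, the adjusted p ran from 0.00551 to 0.273 for Slc38a4 and from 0.00912 to 0.257 for Slc1a5.

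The tested members of the cationic class did not pass in high arginine, and their estimated changes were small. For Slc7a2 and Slc7a6, all high arginine libraries nevertheless lay above all standard ones, for Slc7a2 by a small margin. The log2 change in high against standard was -0.02 for Slc7a1 (95% interval -0.17 to 0.13), -0.03 for Slc7a3 (-0.17 to 0.12), 0.13 for Slc7a2 (-0.02 to 0.29) and 0.15 for Slc7a6 (0.02 to 0.29). It was -0.07 for Slc3a2 (-0.23 to 0.09) and 0.05 for Slc7a11 (-0.19 to 0.29). Apart from Slc38a4 and Slc1a5, the changes of the tested members lay between -0.19 for Slc38a10 and 0.17 for Slc38a2. A miss of the threshold does not show that these levels were equal.

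High against low arginine tests directly whether the levels at both extremes differed. Of the 22 tested members 6 were higher and 12 lower in high arginine, 81.8% in all, where 61.5% of all tested genes were called, 32.3% higher and 29.2% lower. With a log2 change of at least 1, 2 members were higher and 4 lower, where 3.41% and 1.9% of all genes were. Slc7a11 and Slc38a6 passed the filter only through the low arginine libraries, so they had to be lower in high arginine. Without them 6 of 20 were higher and 10 lower, 80% in all. Of the 11952 genes that pass the filter in the other libraries, 61.5% were called. At least 1 log2 unit apart were then 2 higher and 3 lower members, and 420 higher and 210 lower genes. Slc38a5, Slc38a10, Slc7a4 and Slc36a1 were higher, by 2.63, 1.10, 0.86 and 0.80, and Slc3a2, Slc7a11, Slc7a3, Slc7a5 and Slc7a1 lower, at -1.67, -1.08, -1.02, -1.001 and -0.97. Slc1a5, at -0.75 (SE 0.06, adjusted p 3.19e-06), was lower in high than in low arginine in all libraries. Slc7a6 was higher in high arginine by 0.30 (SE 0.06, adjusted p 0.00137), and Slc38a4, at 0.04 (SE 0.07, adjusted p 0.605), did not pass. Slc7a2, Slc7a14 and Slc43a2 did not pass either, at -0.05, -0.12 and 0.10.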

How the data were processed

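FPKM per gene and library were deposited with the gene length used, 1 column per library, per the file headers. Libraries came from total RNA with a directional kit, per the labels' protocols; CASAVA 1.8, HISAT2 2.0.5 and featureCounts 1.5.0-p3 are named in the submitters' processing notes. The sources used here do not say how the counting handled strand. The notes name mm9. Starts and ends in the table nevertheless equal those of GENCODE M21 on GRCm38 for 98.33% of 54409 common IDs (41 of the 42 members; Slc3a1 differs), so coordinates are given as GRCm38. The product of FPKM and gene length was a whole multiple of 1 read's worth for 100% of values (tolerance 0.01 reads), which gave reads per gene. The library sizes behind the deposited FPKM were 1.048 to 1.077 times the reads in genes in low arginine. In standard and high arginine they were 0.962 to 1.016 times those reads. Relative to reads in genes, the deposited scaling thus lowers FPKM in low arginine against the other groups. In TPM the median log2 change of all genes tested, low against standard, was 0.115, against 0.001 in the main fit.

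A gene was tested if it reached 1 FPKM in 3 or more of the 9 libraries (12300 genes). The log2(FPKM + 1) values went into limma 3.58.1 (R 4.3.3), in a single fit over the 9 libraries with group as the only term and a trended prior. On this scale changes of low genes are understated. Two-sided p-values were Benjamini-Hochberg adjusted across the whole table, with a threshold of 0.05. Intervals are 95% from the same fit; they and the reads cover these libraries only. The procedure was tested on simulated data, and the voom alternative used the rebuilt reads. No libraries were duplicates, since the chi-square over its degrees of freedom was 2.682 to 13.62 between replicates. Other pseudocounts, filters, scalings, weights and sets of libraries were tried, with a replicate block and with each library left out.

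The members, classes and lists were chosen with earlier results of these data known. Values in every library were given for cationic members and the heavy chain, for members called in low against standard arginine with a change of at least 0.5 on the log2 scale, and, by choice after seeing values, for Slc7a7, Slc38a9, Slc1a2, Slc38a6, Slc38a4 and Slc1a5; of the other transporters, the 4 called with the largest change were named, and Slc25a29, Slc25a15 and Pqlc2 were singled out afterwards. Exon overlaps were computed from GENCODE M21, and promoter sequences are those of RefSeq.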

Additional observations from a re-analysis of the deposited data

How the results depend on the processing

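In low against standard arginine, 17 of the 21 called members kept their call under each of the 18 alternatives that tested them; the exceptions were Slc7a6, Slc7a2, Slc1a2 and Slc38a6. No called member changed sign. When each library in turn was left out, 12 to 15 members rose and 5 to 6 fell. In high against low arginine 16 of 18 calls held, all but those of Slc1a2 and Slc38a6. The median log2 change of the tested members in low against standard arginine became 0.014 with no filter, where members near 0 enter, 0.425 in TPM and 0.406 with quantile normalization. In high against low arginine it became -0.316 with a pseudocount of 0.1, -0.014 with no filter, -0.229 with a mean FPKM of at least 5, -0.428 in TPM, -0.227 with array weights and -0.319 with voom weights, and ran from -0.279 to -0.208 when 1 library was left out. With no filter, the share of all genes called was 28.1% for low against standard arginine, and 28.2% for high against low. The causes of the shifts were not tested.

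In high against standard arginine, where 0 members were called, 1 rose and 1 fell with a mean FPKM of at least 5 or with voom weights, 1 fell in TPM, and 2 rose and 3 fell with array weights; leaving out 1 library gave 0 to 1 each way. The share of all genes called, 0.309%, became 0.0221% with no filter, 0.673% with a mean FPKM of at least 5, 0% with only the 6 libraries compared, 10.8% with array weights and 0.602% with voom weights, and 0% to 0.499% when 1 library was left out.

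With a replicate block this share was 0.715%, 0 members were called, and in low against standard arginine only the Slc7a6 call was lost (adjusted p 0.0524). Replicate numbers were not treated as pairs in the main fit, although the correlation of deviations was over 0.1 in 6 of 9 same-number pairs. It ran from -0.04 to 0.24, and libraries of different number were not compared in this way, so pairing is not settled. Apart from Slc38a9, with 134 to 260 reads per library, members under the filter rest on few reads. No limit of detection was computed for the 15 that stayed below 0.1 FPKM, so a change in them cannot be judged here.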

Other observations

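Slc7a15, a mouse carrier of aromatic amino acids, was below the filter but ordered against the arginine concentration, as Slc1a5 was. It had 0.191, 0.194 and 0.214 FPKM in low, 0.153, 0.113 and 0.119 FPKM in standard and 0.0431, 0.0727 and 0.0418 FPKM in high arginine, resting on 3 to 18 reads per library. With no filter on low values it passed in low against standard arginine (log2 change 0.09, adjusted p 0.0181) and in high against low arginine (-0.19, adjusted p 0.000406), and not in high against standard arginine (-0.10, adjusted p 0.229). The gene was singled out after its values were seen.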
